A study of Mus musculus with 8 samples.

Results

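The stretch response common to both genotypes was examined in primary mouse peritoneal mesothelial cells (MCs), the cells that line the peritoneal cavity. It was measured as 4 within-animal differences, each between the stretched and the static culture of the same mouse, and these use all 8 of the 8 RNAseq libraries. A difference is log2(value + 1) of the stretched culture minus log2(value + 1) of the static one, where the value is the TMM-normalized CPM of the gene. The mean of the 4 differences was tested for every gene by limma with the animal as a block, and genes that moved the same way in all 4 animals were described. Of 13665 genes tested, 1979 (14.5%) were higher on stretch in all 4 animals and 2303 (16.9%) were lower in all 4, together 4282 genes.

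MCs were taken from the parietal peritoneum of 2 WT mice and 2 littermates without caveolin-1 (CAV1-/-, strain B6.Cg-CAV1tm1mls/J, written Cav-1- in the labels). The deletion is carried by every cell of these mice and not by MCs alone. Each mouse gave 1 culture that stayed static and 1 that was mechanically stretched for 24 h after both had reached confluence, and no culture was repeated. These numbers are those of the labels and of the libraries analysed here, and the study's text gives a different number of replicates per condition. The stretching programme of the mouse cells is not given in the sources used here.

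MCs form a flat epithelial sheet that is deformed by breathing, movement and the filling of the abdomen. Cells read such deformation through integrins, the actin cytoskeleton and caveolae, the membrane pits that caveolin-1 builds, and pass it on to transcription factors such as YAP, TAZ, SRF and the SMADs of the TGF-β pathway. MCs under strain or TGF-β1 can lose epithelial traits and gain mesenchymal ones, which is called mesothelial-to-mesenchymal transition (MMT).

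Each library held between 9777738 and 21203938 reads, and a gene with 3 reads lay between 0.146 and 0.308 TMM-normalized CPM. The stretched libraries had 15861571 reads or more and the static ones 14237503 or fewer, so depth and stretch cannot be told apart in this design. With all libraries thinned at random to 1 depth, which evens out the number of reads only, 168 genes were called higher and 203 lower on stretch. Cav1, the deleted gene (chromosome 6, 17306335 to 17341452), had 764 and 275 TMM-normalized CPM in the static cultures of WT animals 1 and 2 and 34.5 and 18.9 in those of CAV1-/- animals 1 and 2. On stretch it had 569.9 and 247 in WT and 20.04 and 12.8 in CAV1-/- cultures, so that every CAV1-/- library lay below every WT library. Of 14 mesothelial markers 13 were tested, and their summed level was 4119.8 and 3958 in static WT cultures against 1177 and 1136 in static CAV1-/- ones. The other one, the defining marker Calb2, is not among the genes of the table. The 13 leukocyte markers tested summed to 82.9 to 5306 in static and 89.6 to 5089.9 in stretched libraries, with both highest sums in CAV1-/- animal 1. For stretch 0 of the 13 were called by limma, edgeR or DESeq2 (2 of 13 at 0.05 before adjustment in limma). The unadjusted count over all 13665 genes tested was 2954 in limma. In these bulk samples fewer cells of a type and less RNA per cell cannot be told apart.

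Stretch changed 308 of the 13665 genes (2.25%) at an adjusted p-value under 0.05, of which 141 (1.03%) rose and 167 (1.22%) fell. The largest rises were those of the retinoic acid synthesis gene Aldh1a3, the Notch ligand gene Jag1, the acyl-CoA synthetase gene Acsbg1 and the osteoprotegerin gene Tnfrsf11b, and the largest falls those of the hyaluronan-degrading gene Cemip, the pseudogene Gm10254, the IGF-binding gene Igfbp2 and the basement membrane gene Nid2. Of the called genes 23 rose and 33 fell by at least 2-fold, and the median size of the difference was 0.626 on the log2 scale. In all 308 the 4 animals moved the same way, which a test of their mean favours, whereas 31.3% of all genes tested did so. In 48 of them, 20 higher and 28 lower, no static library overlapped any stretched one, against 400 (2.93%) of all genes. The number of calls rests on the model: with the animal as a random effect or a block by replicate number limma called 0 genes (2826 and 1920 at 0.05 before adjustment), and without the intensity trend of eBayes it called 0 higher and 3 lower, although 2767 genes had a p-value of 0.05 or less before adjustment (2954 with the trend). Without CAV1-/- animal 2 limma called 0 genes (2280 at 0.05 before adjustment), without CAV1-/- animal 1 it called 4, without WT animal 1 130 and without WT animal 2 145. The 308 genes could not change direction in these 4 fits, because in each of them all 4 animals moved the same way.

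The response was not of equal size in the 4 animals. Over the 308 called genes the median absolute difference was 0.742 in WT animal 1, 0.491 in WT animal 2, 0.635 in CAV1-/- animal 1 and 0.591 in CAV1-/- animal 2. WT animal 1 had the largest difference for 153 of the genes and WT animal 2 the smallest for 150. Across all 13665 genes the differences of WT animal 1 and CAV1-/- animal 1 had a Pearson correlation of 0.437, and those of WT animal 2 and CAV1-/- animal 2 one of 0.375. The other pairs of animals gave 0.197 to 0.337. These correlations describe genes, which are not independent replicates, and each animal's static culture enters its own difference only. When the 200 genes with the lowest p-values were taken from 3 animals, 90.5% to 97.0% of them moved the same way in the animal left out, depending on which it was, against 63.5% to 66.3% of all genes, a description chosen after the data had been seen. In every animal the stretched library was also the deeper one, so these shares cannot tell stretch from depth.

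**Figure D1:**
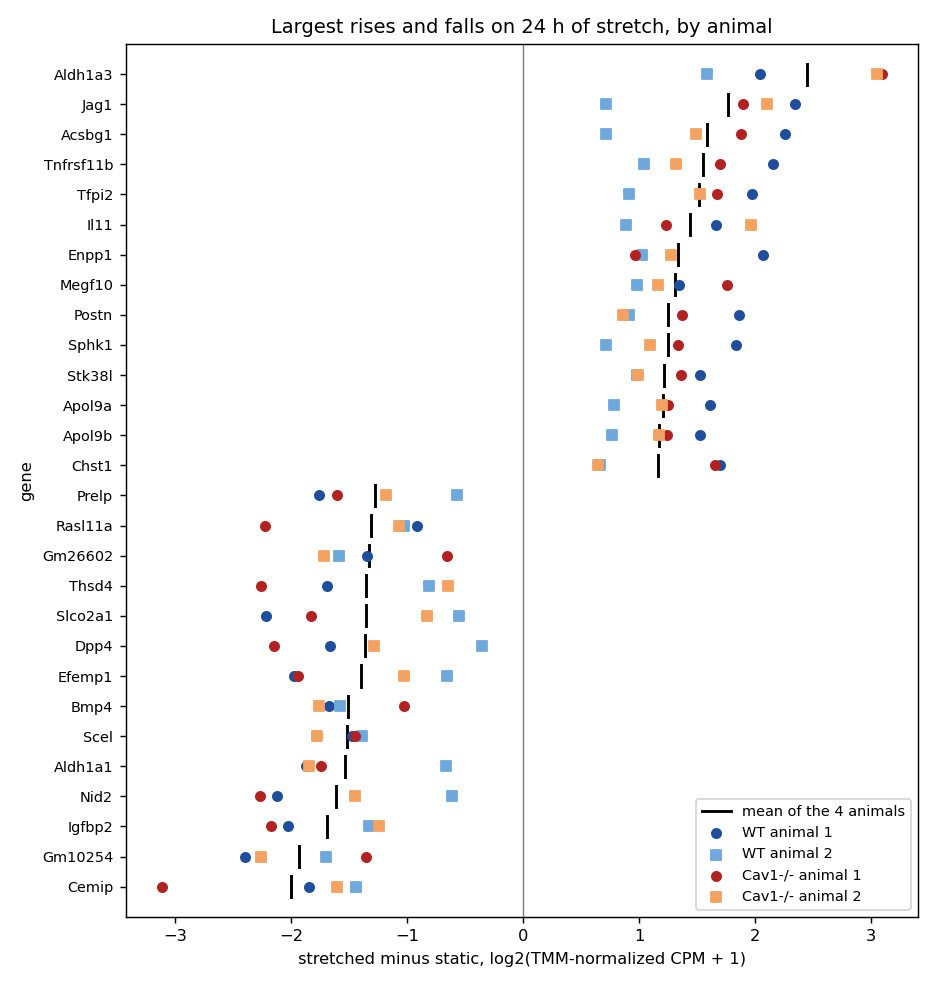
Differences on stretch of 28 called genes, the 14 that rose most and the 14 that fell most. The x axis gives stretched minus static on the log2(TMM-normalized CPM + 1) scale, each point is 1 animal and the black bar is the mean of the 4. All 4 points of every gene lie on 1 side of 0, and WT animal 2 is closest to 0 in 19 of the 28 rows.

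The largest rise was that of Aldh1a3, while its relative Aldh1a1 was among the genes that fell most. Aldh1a3, which encodes an enzyme that makes retinoic acid from retinaldehyde (chromosome 7, 66390890 to 66427517), had a level of 3.43 and 17.4 TMM-normalized CPM in static and 17.3 and 54.2 in stretched WT cultures, and of 2.97 and 2.88 in static and 32.9 and 31.0 in stretched CAV1-/- cultures (animals 1 and 2). Each stretched culture was above its own static one, but WT animal 2 was already as high at rest as WT animal 1 was on stretch, so the conditions overlapped. The mean rise was 2.44 ± 0.75 on the log2 scale (SD, n = 4), or 5.43-fold, with an adjusted p of 0.0145. Aldh1a1, a related enzyme of the same reaction (chromosome 19, 20492715 to 20643465), fell from 227 and 189 to 61.3 and 118 in WT and from 12.1 and 15.6 to 2.91 and 3.61 in CAV1-/- MCs. Its mean difference was -1.53 ± 0.58 (SD, n = 4, adjusted p = 0.0167), and every CAV1-/- library lay below every WT one. Aldh1a7, a neighbour of Aldh1a1 that shares part of its sequence, fell by 1.15 on the log2 scale (adjusted p = 0.0283). Dhrs3, which returns retinaldehyde to retinol, fell by 0.83 (adjusted p = 0.0164) with no overlap between static and stretched libraries. Aldh1a7 and Dhrs3 were singled out after their values were seen.

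**Figure D2:**
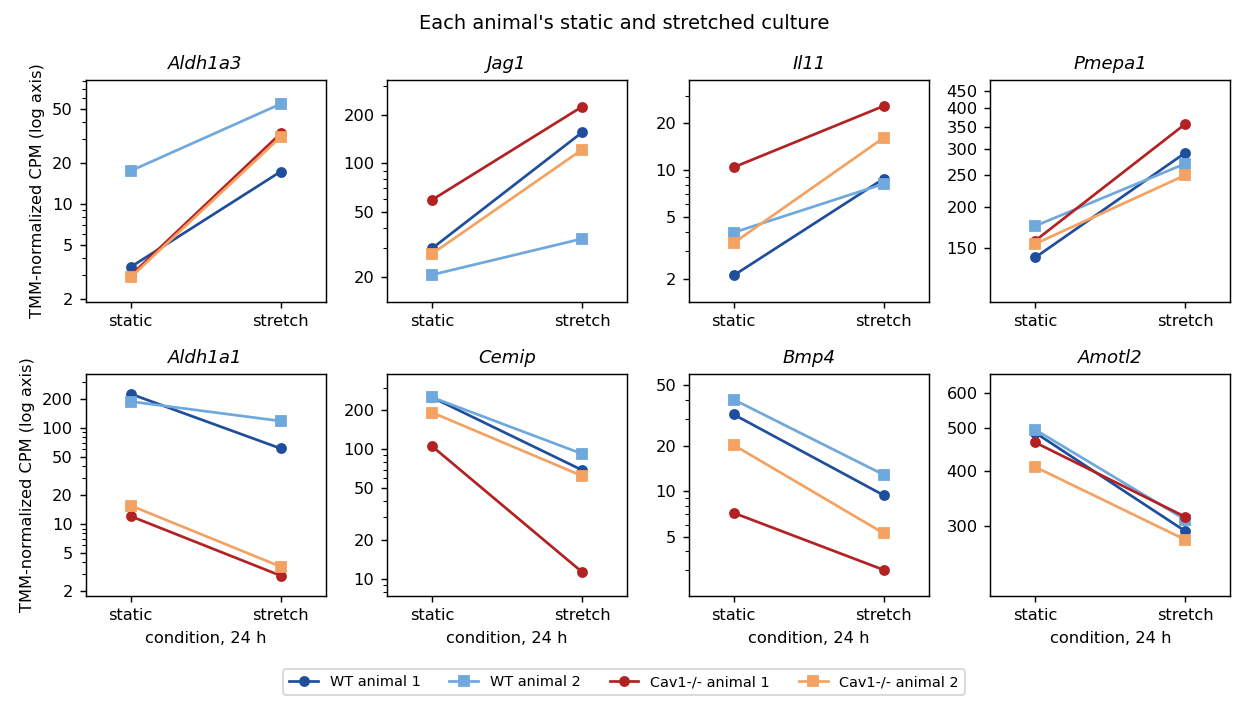
TMM-normalized CPM (log axis) of 8 genes in the static and the stretched culture of each animal, 1 line per animal and no averaging. All 4 lines rise for Aldh1a3, Jag1, Il11 and Pmepa1 and fall for Aldh1a1, Cemip, Bmp4 and Amotl2, from static levels that differ between animals.

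Jag1, the gene of a membrane ligand that activates Notch receptors on neighbouring cells (chromosome 2, 137081456 to 137116644), stood at 29.9 and 20.5 TMM-normalized CPM in static WT and 59.6 and 27.7 in static CAV1-/- cultures. On stretch it stood at 156 and 34.3 in WT and 225 and 122 in CAV1-/- cultures, each above its own static culture. Its 4 differences were 2.34, 0.71, 1.90 and 2.10 in the order WT animals 1 and 2 and CAV1-/- animals 1 and 2, so that WT animal 2 responded least. The mean rise was 1.76 (SE 0.24, adjusted p = 0.0197), or 3.40-fold.

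Il11, Tnfrsf11b and Tfpi2, which encode secreted proteins, rose by similar amounts. Il11, a cytokine of the IL-6 family (chromosome 7, 4772373 to 4782859), went from 2.10 and 3.96 to 8.78 and 8.13 TMM-normalized CPM in WT and from 10.4 and 3.39 to 25.7 and 16.1 in CAV1-/- MCs, a mean rise of 1.43 (SE 0.18, adjusted p = 0.0164). Tnfrsf11b, which encodes osteoprotegerin, the soluble decoy receptor for RANKL (chromosome 15, 54250619 to 54278484), went from 2.03 and 9.04 to 12.5 and 19.6 in WT and from 4.37 and 2.67 to 16.4 and 8.15 in CAV1-/- MCs. It rose by 1.55 (SE 0.18, adjusted p = 0.0162). The levels of both genes overlapped between conditions, and each stretched culture was above the static one of its animal. Tfpi2, an inhibitor of extracellular serine proteases (chromosome 6, 3962595 to 3988919), separated the conditions completely: its static libraries lay at 4.97 and 11.5 in WT and 12.4 and 8.53 in CAV1-/- MCs, and its stretched ones at 22.3 and 22.5 in WT and 41.4 and 26.3 in CAV1-/- MCs. Its mean rise was 1.52 (SE 0.16, adjusted p = 0.0145). The decoy receptors Tnfrsf23 and Tnfrsf22, singled out afterwards and partly sharing sequence, rose by 0.69 and 0.76 (adjusted p = 0.0129 and 0.0218).

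Acsbg1, a synthetase of long-chain acyl-CoA, rose by 1.58 (SE 0.24, adjusted p = 0.0244), from 0.839 and 2.42 to 7.79 and 4.62 in WT and from 2.97 and 3.60 to 13.5 and 11.9 in CAV1-/- MCs, without overlap. Sphk1, which makes the lipid mediator sphingosine-1-phosphate, rose by 1.24 (adjusted p = 0.0209), again without overlap. Enpp1, which releases pyrophosphate from ATP outside the cell, rose by 1.33 (differences 0.96 to 2.07, adjusted p = 0.0188). Ank, whose product exports ATP and pyrophosphate and which was singled out afterwards, rose by 1.10 (0.72 to 1.46, adjusted p = 0.0145). Stk38l, a kinase of the NDR family next to the Hippo pathway, rose by 1.21 with the narrow range of 0.98 to 1.52 (adjusted p = 0.0129), although 15.6% of its 61-base stretches also occur elsewhere, mainly in Gm3555. The engulfment receptor gene Megf10 rose by 1.31 (adjusted p = 0.0145) and the sulfotransferase gene Chst1 by 1.16 (adjusted p = 0.0448). Apol9a and Apol9b rose by 1.21 and 1.17 (adjusted p = 0.0162 and 0.0162), but 47.2% of the 61-base stretches of Apol9b transcripts also occur in other genes, mainly Apol9a, so that reads could not be assigned to either with certainty.

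The largest fall was that of Cemip, whose product degrades the matrix polymer hyaluronan (chromosome 7, 83932857 to 84086502). Its level was 252 and 252 TMM-normalized CPM in static and 69.2 and 92.4 in stretched WT cultures, and 106 and 193 in static and 11.3 and 62.4 in stretched CAV1-/- cultures. Every stretched library lay below every static one, and CAV1-/- animal 1 fell furthest, by 3.12 on the log2 scale. The mean fell by 2.00 (SE 0.25, adjusted p = 0.0164), 4.01-fold. Has2, a hyaluronan synthase, rose by 1.12 (0.62 to 2.04, adjusted p = 0.0490), from 10.9 and 39.8 to 47.9 and 67.9 in WT and from 48.5 and 79.3 to 74.9 and 168 in CAV1-/- MCs. It lies across the antisense gene Has2os, and the reads are not stated to have been counted by strand.

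Igfbp2, which binds insulin-like growth factors, fell from 119 and 105 to 28.5 and 41.1 in WT and from 34.4 and 28.7 to 6.84 and 11.5 in CAV1-/- MCs (chromosome 1, 72824503 to 72852474), a mean difference of -1.69 (SE 0.17, adjusted p = 0.0129). The prostaglandin transporter gene Slco2a1 fell by 1.36 (differences -2.22 to -0.55, adjusted p = 0.0493), while Ptgs2, the inducible cyclooxygenase gene singled out afterwards, rose by 0.80 (0.42 to 1.33, adjusted p = 0.0398). Dpp4, a surface peptidase, fell by 1.36 (adjusted p = 0.0464), from 154 and 111 to 47.8 and 86.2 in WT MCs and from the lower levels of 7.09 and 6.78 to 0.825 and 2.19 in CAV1-/- MCs. Its fall was smallest in WT animal 2, at -0.36. Scel, the gene of the cornified envelope protein sciellin, and Nell2, a secreted EGF-domain glycoprotein, fell by nearly the same amount in every animal, with differences of -1.78 to -1.39 and -1.51 to -1.12 and adjusted p-values of 0.0129 and 0.0129. Rasl11a, a small Ras-like GTPase gene, fell by 1.31 (adjusted p = 0.0287) and Thsd4, a matrix gene of the fibrillin microfibrils, by 1.36 (adjusted p = 0.0477). The acute-phase gene Saa3, singled out afterwards, fell by 0.82 with a narrow range of -0.94 to -0.66 (adjusted p = 0.0129).

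Gm10254 and Gm26602 had next to no reads on stretch. Gm10254, a processed pseudogene of which 70.6% of 61-base stretches also occur in other genes, mainly Tra2b, had 61, 28, 19 and 37 reads in the static libraries and 0 in all 4 stretched ones. Against a floor of 3 reads per library it was at least 10.8-fold lower on stretch in every animal. Gm26602, which overlaps R3hdm4, had 78 reads over the static libraries and 1 over the stretched ones, a static to stretched ratio of 121 per depth with an exact 95% counting interval of 21.1 to 4846. Where the counting could split reads between such copies, the value of Gm10254 is uncertain. Gm26602 shares 0% of its 61-base stretches with transcripts of other genes, and what its overlap with R3hdm4 does to its count was not tested.

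The TGF-β list held 34 genes of the pathway's ligands, receptors, SMAD regulators and targets. It included Bmp4, Id1 and Id3 of the BMP pathway, which were its only called falls, and as a whole it split rather than moving 1 way. Of the 34 genes 5 rose and 3 fell (23.5% called, against 2.25% of all genes). In all 4 animals 14 were higher (41.2%, against 14.5% of all genes) and 11 lower (32.4%, against 16.9%). The median difference was -0.01, which turned to 0.0052 under quantile normalization and to 0.0802 without WT animal 1 (all genes -0.01). The called genes that rose were Pmepa1, Skil, Smurf2, Itgav, an integrin subunit that activates latent TGF-β, and Bhlhe40. Pmepa1, a target that restrains SMAD signaling (chromosome 2, 173224458 to 173276533), was at 140.0 and 175 in static and 292 and 270.2 in stretched WT cultures, and at 157 and 154 in static and 357 and 249 in stretched CAV1-/- ones. Its static and stretched libraries did not overlap, and it rose by 0.89 (SE 0.10, adjusted p = 0.0162). Skil, a SMAD corepressor, and Smurf2, a ubiquitin ligase for SMADs and receptors, rose by 0.46 and 0.46 (adjusted p = 0.0208 and 0.0188), and Itgav and Bhlhe40 by 0.41 and 0.38 (adjusted p = 0.0464 and 0.0427). Fstl3, a follistatin-like antagonist of activin singled out afterwards, rose by 0.85 (adjusted p = 0.0231).

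The called genes of the list that fell were Bmp4, Id1 and Id3. Bmp4, a BMP ligand (chromosome 14, 46383520 to 46390669), was at 32.1 and 40.3 in static and 9.37 and 12.8 in stretched WT cultures, and at 7.17 and 20.1 in static and 3.01 and 5.25 in stretched CAV1-/- ones. It fell in every animal, by 1.51 on average (SD 0.33, n = 4, SE 0.14, adjusted p = 0.0129), 2.85-fold. Id1 and Id3, inhibitors of helix-loop-helix factors and textbook BMP targets, fell by 0.50 and 0.61 (adjusted p = 0.0431 and 0.0148). Bmp6, a further BMP ligand, and Atoh8, a transcription factor gene, fell by 0.81 and 0.68 (adjusted p = 0.0191 and 0.0188), both singled out after their values were seen. Tgfbr3, a co-receptor for TGF-β, was lower in all 4 animals (-0.85, -0.24, -1.08 and -0.49) and just missed the threshold (mean -0.67, SE 0.13, adjusted p = 0.0506). Tgfb1 itself was higher in all 4 animals (0.08 to 0.78) without passing the test (mean 0.38, SE 0.11, adjusted p = 0.118).

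The promoters of the BMP ligand genes that fell together are shown from RefSeq on GRCm38.p6, from 250 bases before to 50 after the annotated start, 5′ to 3′ on the strand of the gene. Capitals mark the E-box CACGTG, searched on both strands, which is present in 11.7% of the 9889 promoters matched to genes tested, in 13.9% of those of genes called higher and in 10.7% of those of genes called lower. The match is a description of these letters and not a shown site of binding. Bmp4 is at chr14:46390620-46390919, minus strand, and Bmp6 at chr13:38345466-38345765, plus strand.
Bmp4: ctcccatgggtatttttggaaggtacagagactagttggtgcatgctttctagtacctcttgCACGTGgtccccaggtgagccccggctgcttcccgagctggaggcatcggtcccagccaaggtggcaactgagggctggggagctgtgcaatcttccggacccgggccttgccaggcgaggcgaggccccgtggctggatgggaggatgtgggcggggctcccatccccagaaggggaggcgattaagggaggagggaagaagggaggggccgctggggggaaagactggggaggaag
Bmp6: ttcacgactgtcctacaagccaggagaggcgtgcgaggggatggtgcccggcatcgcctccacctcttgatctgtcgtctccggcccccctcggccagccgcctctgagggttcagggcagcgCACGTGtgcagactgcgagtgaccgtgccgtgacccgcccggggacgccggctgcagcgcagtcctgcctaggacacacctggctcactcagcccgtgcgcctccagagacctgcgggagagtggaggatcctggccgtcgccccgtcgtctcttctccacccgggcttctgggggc

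Of 27 YAP and TAZ targets, 1 rose and 1 fell (7.41% called, against 2.25% of all genes). A higher mean was found for 10 of them (37.0%, against 47.7% of all genes), and in all 4 animals 9 were lower (33.3%, against 16.9%) and 3 higher (11.1%, against 14.5%). Amotl2, a target that in turn holds YAP at cell junctions (chromosome 9, 102716672 to 102733418), was at 488 and 496 in static and 292 and 311 in stretched WT cultures, and at 464 and 409 in static and 315 and 279.7 in stretched CAV1-/- ones. All stretched libraries lay below all static ones, and the fall of 0.63 varied little between animals (SD 0.09, n = 4, adjusted p = 0.0129). Nuak2, a kinase gene, rose by 0.73 (adjusted p = 0.0393). The standard YAP readouts Ctgf, Ankrd1 and Cyr61 had mean differences of 0.13, 0.01 and -0.20 (SE 0.07, 0.07 and 0.06, adjusted p = 0.338, 0.973 and 0.108), that of Ankrd1 falling below 0 with thinned reads, and Yap1 had one of 0.03 (SE 0.06, adjusted p = 0.812). Cyr61 was lower in all 4 animals (-0.23 to -0.17), whereas Ctgf was higher in 3 and Ankrd1 in 2 of them. Cyr61 passed the adjusted threshold under at least 1 of the 18 alternative settings, and Ctgf, Ankrd1 and Yap1 under none. Igfbp3, also on the list, was lower by 1.09 on average (SE 0.24) with a difference of only -0.02 in WT animal 1 (adjusted p = 0.0679).

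The promoters of Amotl2, which was called, and Ankrd1, which was not, both contain the letters GGAATG, the core recognized by the TEAD partners of YAP and TAZ, shown in capitals on either strand (CATTCC on the opposite one). This motif occurs in 14.5% of all 9889 promoters, in 9.90% of those of genes called higher and in 17.6% of those called lower. The windows are again RefSeq on GRCm38.p6, for Amotl2 chr9:102717554-102717853, plus strand, and for Ankrd1 chr19:36119795-36120094, minus strand.
Amotl2: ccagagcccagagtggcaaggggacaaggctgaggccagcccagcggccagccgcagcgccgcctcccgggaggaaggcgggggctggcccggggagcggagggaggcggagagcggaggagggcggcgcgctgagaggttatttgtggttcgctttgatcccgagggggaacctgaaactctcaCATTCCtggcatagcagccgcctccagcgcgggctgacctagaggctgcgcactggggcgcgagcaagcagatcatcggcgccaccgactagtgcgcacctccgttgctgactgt
Ankrd1: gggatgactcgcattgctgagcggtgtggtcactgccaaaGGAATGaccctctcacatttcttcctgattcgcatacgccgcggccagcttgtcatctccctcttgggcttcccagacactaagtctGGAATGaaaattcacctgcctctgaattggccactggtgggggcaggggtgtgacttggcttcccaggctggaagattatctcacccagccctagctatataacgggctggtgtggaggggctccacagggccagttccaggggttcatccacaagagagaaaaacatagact

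Integrins are heterodimeric adhesion receptors that link matrix to actin. Their genes were not a list of their own, and those described were taken from other lists or, for Itgb3, singled out afterwards. Itga2, Itga5, Itgav, Itgb1 and Itgb3, subunits of receptors for collagen, fibronectin and vitronectin, rose by 0.87, 0.68, 0.41, 0.40 and 1.14 (adjusted p = 0.0217, 0.0209, 0.0464, 0.0443 and 0.0164). Itgb3 went from 18.5 and 56.6 to 58.2 and 121 TMM-normalized CPM in WT and from 79.1 and 110.0 to 123 and 262 in CAV1-/- MCs. For Itgb1 the 4 differences ran from 0.36 to 0.48, with little spread. Itga1, a collagen receptor subunit, was lower in all 4 animals (-0.69 to -0.32) without passing the test (adjusted p = 0.0598). In the list of focal adhesion and mechanosensor genes 3 of 29 were called (10.3%, against 2.25% of all genes), all higher (Itga2, Itgb1 and the intermediate filament gene Nes, 0.39, adjusted p = 0.0493). Of the same 29 genes 14 had a higher mean (48.3%, against 47.7% of all genes) and 15 a lower one. In all 4 animals 7 were higher (24.1%, against 14.5%) and 3 lower (10.3%, against 16.9%), and the median was -0.02. Piezo2, a stretch-gated channel, was higher in all 4 animals by unequal amounts (0.26, 0.16, 1.59 and 1.26) and missed the threshold (adjusted p = 0.115).

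Among 30 SRF and MRTF targets and actin genes, 1 rose (Itga5) and 2 fell (10% called, against 2.25% of all genes). In all 4 animals 10 were lower (33.3%, against 16.9%) and 3 higher (10%, against 14.5%). The light chain gene Myl9 fell by 0.35 with an SD of 0.03 (n = 4, adjusted p = 0.0266), from 329 and 208 to 252 and 166 in WT and from 573 and 298 to 447 and 235 in CAV1-/- MCs. Fhl1, a LIM-domain gene, fell by 0.65 (adjusted p = 0.0388), and Lmod1, an actin nucleator, was lower in all 4 animals (-0.52 to -0.20, adjusted p = 0.0526). Acta1, the skeletal muscle actin gene singled out afterwards, went the other way, by 0.99 (SE 0.09, adjusted p = 0.0129), from static levels as unlike as 190.2 and 27.9 in WT and 685 and 6.37 in CAV1-/- MCs.

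Of 23 collagen genes 1 rose and 5 fell (26.1% called, against 2.25% of all genes), 17 had a lower mean, 11 were lower in all 4 animals (47.8%, against 16.9% of all genes) and the median difference was -0.12. Col3a1, a fibril-forming collagen, fell from 3101 and 3660.4 to 1549.6 and 1992 in WT and from 1551 and 3127 to 492 and 2432 in CAV1-/- MCs, by 0.97 on average, with the smallest difference, -0.36, in CAV1-/- animal 2 (adjusted p = 0.0477). The basement membrane chains Col4a5 and Col4a6, neighbours on chromosome X, fell by 0.56 and 0.95 (adjusted p = 0.0179 and 0.0170). Col8a1 and Col8a2, the network-forming type VIII chains, fell by 0.65 and 0.57 (adjusted p = 0.0209 and 0.0464). Col5a3, a fibrillar chain, rose by 0.75 (adjusted p = 0.0162), and Col11a1 was higher in all 4 animals (0.14 to 1.92) without passing the test (adjusted p = 0.0996).

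Of 35 matrix glycoproteins and proteoglycans 2 rose (Has2 and Postn) and 5 fell (20% called, against 2.25% of all genes). In all 4 animals 16 were lower (45.7%, against 16.9% of all genes) and 5 higher (14.3%, against 14.5%), with a median of -0.28. Nid2, a linker of the basement membrane, fell from 1262 and 1675 to 289 and 1089.7 TMM-normalized CPM in WT and from 100.1 and 321 to 19.99 and 117 in CAV1-/- MCs, a mean difference of -1.62 (SE 0.25, adjusted p = 0.0266). Nid2 overlaps Rtraf and Ogn overlaps Cenpp. Both share 0% of their 61-base stretches with transcripts of other genes, and what the overlaps do to their counts was not tested. Efemp1 and Fbln5, both fibulins of elastic fibres, fell by 1.40 and 0.44 (adjusted p = 0.0287 and 0.0359), and the small leucine-rich proteoglycans Prelp and Ogn by 1.28 and 1.01 (adjusted p = 0.0287 and 0.0292). Postn, a matricellular protein of remodelling tissue, rose by 1.25 (0.86 to 1.86, adjusted p = 0.0166), from 28.6 and 414 to 106 and 777 in WT and from 86.8 and 153 to 225 and 278 in CAV1-/- MCs. The animals' static levels of Postn differed by more than the response did. Eln, the elastin gene, had a lower stretched than static level in each WT animal (-4.45 and -1.15) and lay between 0.206 and 0.383 TMM-normalized CPM, near the level of 3 reads, in the 4 CAV1-/- libraries, and it was not called (adjusted p = 0.314). Spp1, osteopontin, was higher in all 4 animals (0.16 to 1.79, adjusted p = 0.0776).

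Of 30 matrix proteases, inhibitors and crosslinkers 1 rose and 2 fell (10% called, against 2.25% of all genes). A higher mean was found for 19 of them (63.3%, against 47.7% of all genes), 10 were higher in all 4 animals (33.3%, against 14.5%) and 7 lower (23.3%, against 16.9%), with a median of 0.20. Plod2, a lysyl hydroxylase that prepares collagen for crosslinking, rose by 0.71 (adjusted p = 0.0300). Adamts5 and Adamts1, proteases that cut proteoglycans, fell by 1.10 and 0.88 (adjusted p = 0.0129 and 0.0325). For Adamts5 the static libraries were at 199 and 117 in WT and 116 and 104 in CAV1-/- MCs and the stretched ones at 101 and 56.7 in WT and 40.5 and 55.2 in CAV1-/- MCs, with no overlap.

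**Figure D3:**
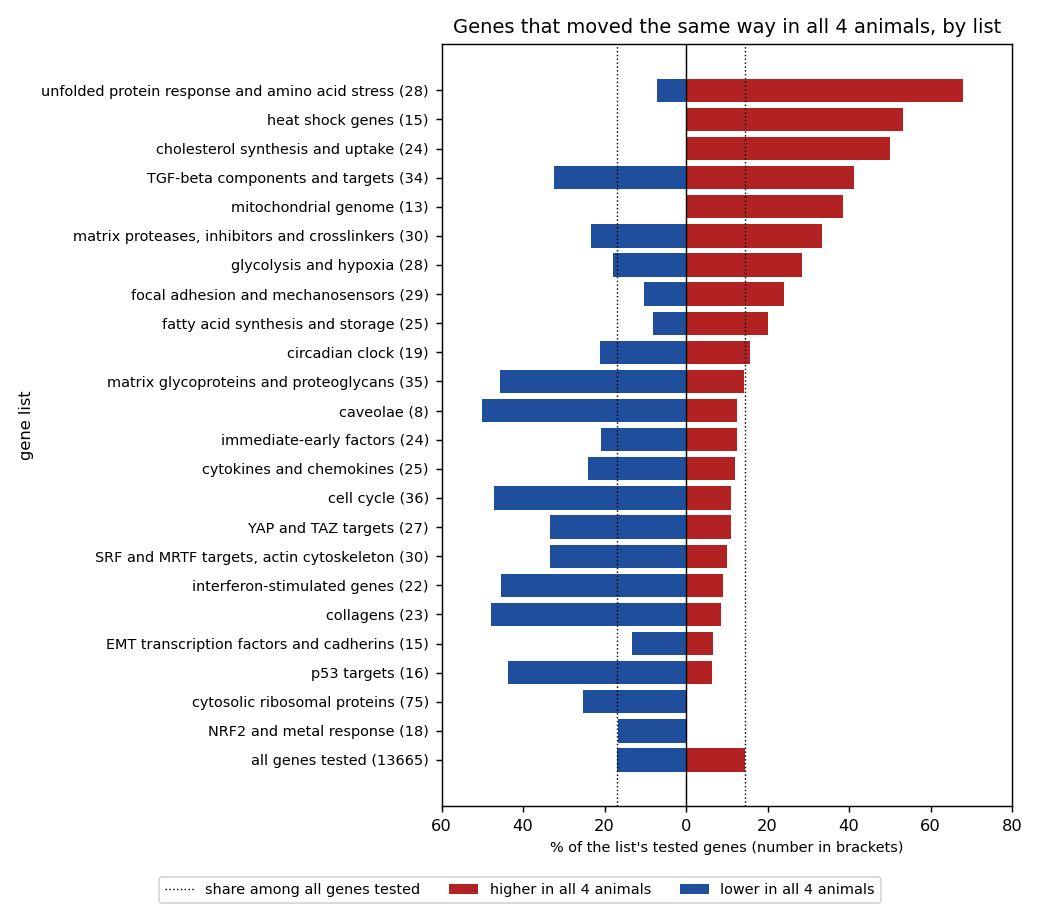
Share of the tested genes of each list that were higher (right, red) or lower (left, blue) on stretch in all 4 animals. The number of genes is in brackets and the dotted lines mark the shares among all genes tested, 14.5% and 16.9%. The unfolded protein response, heat shock and cholesterol lists lie furthest right, and the caveolae, collagen and cell cycle lists furthest left. The caveolae list has only 8 tested genes and includes the deleted Cav1.

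Of 25 cytokine and chemokine genes 3 rose and 1 fell (16.0% called, against 2.25% of all genes). A lower mean was found for 15 of them, and in all 4 animals 6 were lower (24.0%, against 16.9%) and 3 higher (12.0%, against 14.5%). Pgf, the angiogenic placental growth factor, rose by 0.85 (adjusted p = 0.0224) next to Il11, and Cxcl10, an interferon-induced chemokine whose gene overlaps Art3, fell by 0.87 (adjusted p = 0.0431). The neutrophil chemokine genes Cxcl1 and Cxcl5 had differences of 0.69, -0.84, -2.13 and -1.11 and of 0.99, -1.59, -1.65 and -1.33, higher in WT animal 1 and lower in the other 3 animals (adjusted p = 0.253 and 0.257). Hbegf, an EGF receptor ligand, and Wnt11, a WNT ligand, both singled out afterwards, rose by 0.83 and 1.00 (adjusted p = 0.0248 and 0.0464). Nox4, a hydrogen peroxide-producing oxidase gene that was also singled out afterwards, rose by 0.76 (adjusted p = 0.0493).

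After 24 h the immediate-early genes Fos and Egr1 were lower on stretch, by 0.58 and 0.50 (adjusted p = 0.0349 and 0.0220). Of the 24 genes of that list these 2 were called (8.33%, against 2.25% of all genes). A higher mean was found for 11 (45.8%, against 47.7% of all genes) and a lower one for 13. The AP-1 genes Fosb and Jun were higher in all 4 animals (0.29 to 0.49 and 0.09 to 0.46) without passing the test (adjusted p = 0.110 and 0.0978). The AP-1 motif TGANTCA stands in 6.55% of all 9889 promoters, in 8.91% of those of genes called higher and in 9.92% of those called lower. It is shown in capitals for Il11 and Tfpi2, both of which rose. Each has more than 1 annotated start, and the window printed is the one that holds the motif (RefSeq, GRCm38.p6), for Il11 chr7:4778092-4778391, minus strand, and for Tfpi2 chr6:3968326-3968625, minus strand.
Il11: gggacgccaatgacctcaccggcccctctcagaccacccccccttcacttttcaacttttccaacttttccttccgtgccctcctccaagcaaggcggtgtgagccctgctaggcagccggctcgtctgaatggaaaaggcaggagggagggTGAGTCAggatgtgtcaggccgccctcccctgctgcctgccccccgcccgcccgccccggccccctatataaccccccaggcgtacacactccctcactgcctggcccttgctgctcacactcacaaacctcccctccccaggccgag
Tfpi2: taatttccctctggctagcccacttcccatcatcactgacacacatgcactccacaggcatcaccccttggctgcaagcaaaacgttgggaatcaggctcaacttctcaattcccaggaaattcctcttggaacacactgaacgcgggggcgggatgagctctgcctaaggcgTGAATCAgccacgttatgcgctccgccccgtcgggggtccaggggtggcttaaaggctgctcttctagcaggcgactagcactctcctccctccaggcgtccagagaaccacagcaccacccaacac

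A part of the mesothelial markers fell. Of 13 tested, 3 were called, all lower (23.1%, against 2.25% of all genes). In all 4 animals 6 were lower (46.2%, against 16.9%) and 1 was higher (7.69%, against 14.5%), and the median difference was -0.45. Upk3b, a uroplakin of the mesothelial surface, went from 389 and 545 to 202 and 441 in WT and from 13.2 and 111 to 3.15 and 49.5 in CAV1-/- MCs, a mean difference of -1.04 (adjusted p = 0.0496). Krt7, a simple epithelial keratin, fell by 0.88 and Bnc1, a transcription factor gene, by 0.45 (adjusted p = 0.0286 and 0.0427). Lrrn4 and Gpm6a were lower in all 4 animals (-1.55 to -0.45 and -1.73 to -0.19) without passing the test (adjusted p = 0.0654 and 0.0981). Of 15 EMT factors and cadherins 1 was called (6.67%, against 2.25% of all genes), Cdh3, P-cadherin, with a fall of 0.74 (adjusted p = 0.0164). Snai1 was higher in all 4 animals (0.16 to 0.58, mean 0.35, adjusted p = 0.0812).

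In the lists of other cell types at most 1 marker each was called. Of 9 fibroblast markers 1 was called (11.1%, against 2.25% of all genes), Cd34, which fell by 0.53 (adjusted p = 0.0443). A lower mean was found for 7 of the 9, and 4 were lower in all 4 animals (44.4%, against 16.9% of all genes). Their summed level was 285 to 1826 in static and 134 to 1659.6 in stretched libraries. Dcn, a fibroblast proteoglycan, had differences of -1.34, -0.07, -1.71 and -0.17 (adjusted p = 0.142). Of 8 smooth muscle and pericyte markers 1 was called (12.5%, against 2.25% of all genes), Pdgfrb, which rose by 0.58 (adjusted p = 0.0304). Cspg4 was higher in all 4 animals (0.37 to 2.20, adjusted p = 0.0654), while Myh11 was lower in all 4 (-1.46 to -0.07, adjusted p = 0.0847). None of the 7 endothelial and 3 adipocyte markers tested was called by limma, edgeR or DESeq2. Before adjustment 1 of each reached 0.05 in limma, against 2954 of all 13665 genes tested. Pecam1, Tie1, Cldn5, Adipoq, Lep and Cidec are not among the genes of the table. The part that a change in the mix of cells plays in the matrix and marker results was not tested.

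Of 28 genes of the unfolded protein response and amino acid stress, 19 (67.9%, against 14.5% of all genes) were higher in all 4 animals, with a median difference of 0.17. Only Dnajb9, a chaperone of the endoplasmic reticulum, passed the test (3.57%, against 2.25% of all genes), with a rise of 0.41 (adjusted p = 0.0381). All 15 heat shock genes had a higher mean (100%, against 47.7% of all genes) and 8 were higher in all 4 animals (53.3%, against 14.5%). Limma and edgeR called 0 of the 15 (7 at 0.05 before adjustment in limma) and DESeq2 called 2. Over all 13665 genes tested 2954 reached 0.05 before adjustment in limma and DESeq2 called 777. Hsph1, a partner of Hsp70, had differences of 0.90, 0.31, 0.97 and 0.35 (adjusted p = 0.0510), so that WT animal 1 and CAV1-/- animal 1 lay above the other animals. Of 24 genes of cholesterol synthesis and uptake, 22 had a higher mean (91.7%, against 47.7% of all genes). In all 4 animals 12 were higher (50%, against 14.5%) and 0 lower (0%, against 16.9%). Limma and edgeR called 0 of the 24 (12 at 0.05 before adjustment in limma) and DESeq2 called 4. Cyp51, a sterol demethylase, came closest, with a difference of 0.39 (adjusted p = 0.0501). Of 25 genes of fatty acid synthesis and storage 2 were called (8%, against 2.25% of all genes). The lipid droplet gene Plin2 rose by 0.44 and the acyl-CoA synthetase gene Acsl1 fell by 0.45 (adjusted p = 0.0464 and 0.0461).

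Cell cycle genes were lower on average in 29 of 36 cases and lower in all 4 animals in 17 (47.2%, against 16.9% of all genes), with a median of -0.17. Limma and edgeR called 0 of them (17 at 0.05 before adjustment in limma) and DESeq2 called 4. Over all 13665 genes tested these counts were 2954 before adjustment in limma and 777 called by DESeq2. Ccnd1, cyclin D1, had differences of -1.58, -0.03, -0.92 and -0.50 (adjusted p = 0.113) and Cdc20, a mitotic activator, of -0.69, -0.27, -0.57 and -0.21 (adjusted p = 0.0634). Of 28 glycolysis and hypoxia genes 1 was called (3.57%, against 2.25% of all genes), Adm, the gene of the vasodilator adrenomedullin (chromosome 7, 110627661 to 110629820). It fell from 24.8 and 40.6 to 12.2 and 19.0 in WT and from 30.9 and 10.9 to 12.8 and 4.05 in CAV1-/- MCs, a mean difference of -1.12 (SD 0.13, n = 4, adjusted p = 0.0129). A higher mean was found for 20 of the 28 genes (71.4%, against 47.7% of all genes). Of 22 interferon-stimulated genes 1 was called (4.55%, against 2.25% of all genes), and 10 were lower in all 4 animals (45.5%, against 16.9% of all genes). The called gene, the peptide transporter gene Tap1, fell by 0.62 (adjusted p = 0.0470) and overlaps Psmb9. Of 8 caveolae genes, the deleted Cav1 among them, 1 was called (12.5%, against 2.25% of all genes). In all 4 animals 4 were lower (50%, against 16.9%) and 1 higher (12.5%, against 14.5%). The called gene Sdpr, which encodes cavin-2 of the caveolar coat, fell by 0.86 (adjusted p = 0.0162), with static libraries at 221 and 216 in WT and 190.5 and 182 in CAV1-/- MCs and stretched ones at 96.6 and 131 in WT and 127 and 93.0 in CAV1-/- MCs. Cav1 was lower on stretch in all 4 animals (-0.76 to -0.15) but did not pass (mean -0.46, SE 0.10, adjusted p = 0.0597), and the values in CAV1-/- MCs are of a deleted gene.

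Limma and edgeR called 0 genes in the lists of the NRF2 and metal response (3 of 18 with a higher mean), p53 targets (3 of 16), cytosolic ribosomal proteins (18 of 75) and genes of the mitochondrial genome (12 of 13). Before adjustment 4, 5, 9 and 6 of these genes reached 0.05 in limma, and DESeq2 called 2, 1, 1 and 1. Of all 13665 genes tested, 2954 reached 0.05 in limma before adjustment, DESeq2 called 777 and 47.7% had a higher mean. In the circadian clock list of 19 genes only Bhlhe40 was called (5.26%, against 2.25% of all genes). The medians of these lists lay between -0.13 and 0.23. For the mitochondrial genes the medians of the animals were 0.44 and 0.25 in WT and 0.22 in CAV1-/- animal 2, against -0.04 in CAV1-/- animal 1.

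Fn1 and Col1a1, common matrix readouts of MMT, were not called. Fn1, fibronectin, was lower in all 4 animals (-0.68 to -0.11, mean -0.44, SE 0.14, adjusted p = 0.126), and Col1a1 had a mean difference of -0.09 (SE 0.13, adjusted p = 0.710) with 1 animal higher and 3 lower, and of 0.0015 without WT animal 2. Tgfb1 and Snai1 were higher and Cyr61 lower in all 4 animals, none of which passed the main limma test, as given above. Under at least 1 of the 18 alternative settings Fn1 and Cyr61 had an adjusted p-value under 0.05. Col1a1, Tgfb1 and Snai1 did not under any.

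Whether a response differed between genotypes was tested as the CAV1-/- minus the WT mean difference, with the animal as a block. None of the 13665 genes (0%) passed the adjusted threshold in limma, the lowest adjusted p being 0.342, and DESeq2 called 6 genes. Before adjustment 581 of the 13665 genes reached 0.05 in limma, as did 11 of the 308 genes called for stretch. Neither of these unadjusted counts shows a difference between the genotypes. The lowest p-value among the 11 was that of Aldh1a3, which rose by 1.81 in WT and 3.07 in CAV1-/- MCs, a gap of 1.26 (SE 0.22, adjusted p = 0.947 from limma). Upk3b had mean differences of -0.62 in WT and -1.46 in CAV1-/- MCs, and the difference between them was -0.84 (SE 0.27, adjusted p = 0.947 from limma). With 2 animals a genotype these intervals are wide: the SE of the difference was 0.48 for Jag1, whose difference was 0.47. A missing call therefore does not show that the genotypes responded alike. In 1227 of the 13665 genes both animals of 1 genotype moved up and both of the other moved down, against 4282 that moved the same way in all 4 animals. That count alone does not show opposite responses.

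**Figure D4:**
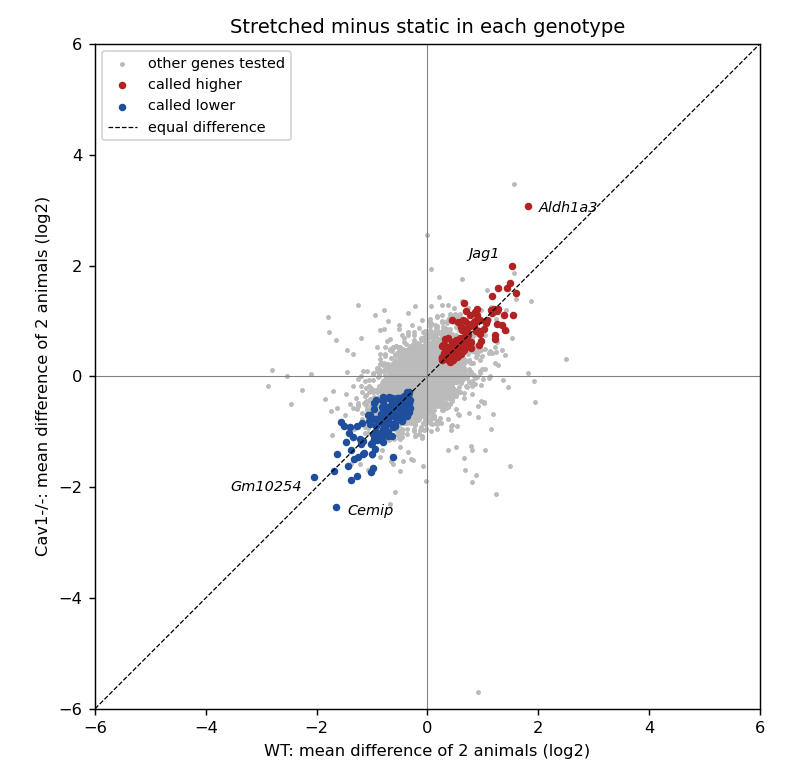
Mean difference on stretch of the 2 CAV1-/- animals (y axis) against that of the 2 WT animals (x axis) for all 13665 genes tested, on the log2(TMM-normalized CPM + 1) scale. The called genes (red higher, blue lower) lie in the 2 quadrants of equal sign, as the test of the mean selects for, with Aldh1a3 above the dashed line of equal difference.

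Just inside the threshold for a call lay Ivns1abp at 0.63, Flrt3 at 0.46 and Ddah1 at -0.33, and just outside Hist1h2bc at 0.54, Arhgef40 at 0.40 and Cyp51 at 0.39, all on the log2 scale.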

How the data were processed

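RNA was sequenced from 8 primary MC cultures of 4 mice, a static and a stretched culture of each. Per the labels and the study's methods, the authors made poly A libraries, sequenced single 61-base reads, trimmed them with cutadapt and quantified genes of GRCm38 with RSEM. The signal values the authors deposited are TMM-normalized CPM of 13687 genes. Each value was a whole number of reads times 1 constant per library for 100% of values (within 0.01 read), so libraries hold between 9777738 and 21203938 reads. Intervals and floors cover counting error only.

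Genes had to reach 1 in 2 or more libraries, which removed 22 and left 13665. log2(value + 1) was fitted with limma 3.58.1 (R 4.3.3) with the animal as a block, eBayes with trend and Benjamini-Hochberg adjustment, and genes with an adjusted p-value under 0.05 are called. Fold changes are on this scale and understate those of low genes. The labels give the same animal for a static and a stretched culture, and deviations from the group means correlated at 0.703 in WT and 0.850 in CAV1-/- pairs. Sign flips over 4 animals could not go below a two-sided p of 0.125 and were not used. The culture is the replicate, 1 per animal and condition. The alternatives were other pseudocounts, filters, scalings, blocks, variance estimates and depths, each animal left out, edgeR 4.0.16 and DESeq2 1.42.0 on the recovered reads. The scripts were tested on simulated data.

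The comparison, the 23 gene lists, the 6 marker lists and the rule for named genes were chosen with earlier results of these data known. The rule named the 14 largest called rises and falls, the 6 genes in each direction with the largest smallest difference, called list members with up to 4 of the extremes of a list, the genes the study measured by RT-PCR, and 3 genes of opposite sign in the genotypes. Values of some genes it covers are not reported here. Promoters (250 bases before to 50 after the start, RefSeq, GRCm38.p6) were matched by Ensembl identifier, or else by symbol, for 9889 genes. Motifs for SMAD, the sterol regulatory element and NF-kB were also searched and stood in 0.273%, 1.43% and 0.212% of these. No motif for SRF was searched.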

Additional observations from a re-analysis of the deposited data

Results flagged for a closer look

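In 9 of the 135 named genes 1 of the 4 within-animal differences stood apart from the other 3 by a gap above the 95% critical value of Dixon for 4 values. Chance alone gives such a gap in about 1 of 20 groups. Called genes with an animal of smaller difference were Aldh1a1 (-0.67 in WT animal 2), Smurf2 (0.31 in WT animal 2), Id1 (-0.17 in WT animal 1) and Itga2 (0.72 in CAV1-/- animal 1). Those with an animal of larger difference were Rasl11a (-2.23 in CAV1-/- animal 1) and Plin2 (0.74 in WT animal 1). Among genes that were not called, Lrrn4 stood at -1.55 in CAV1-/- animal 2, Cxcl5 at 0.99 in WT animal 1 and Yap1 at -0.0559 in WT animal 2.

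In 3 further genes, those with the lowest unadjusted p-values for the difference between genotypes among the 1227 of opposite sign, both animals of 1 genotype moved against both of the other. The CAV1-/- minus WT difference was 1.17 for ENSMUSG00000095742, -1.14 for ENSMUSG00000101188 and 2.05 for Gm20537, on the log2 scale. None of these passed the limma test of the difference itself (adjusted p = 0.947, 0.947 and 0.947).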

How the results depend on the processing

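Across 18 alternative settings the number of calls moved, while all 308 called genes that had a value kept their direction. Many of these settings could not turn it. Other blocks and variance estimates leave the mean difference as it is. Other pseudocounts and leaving out 1 animal keep the sign of a gene that moved the same way in all 4 animals. The counts of 141 higher and 167 lower stayed within 1.5 times under other pseudocounts, filters and scalings, robust eBayes, edgeR and thinned reads. DESeq2 called 355 higher and 422 lower. Without the trend of eBayes 0 and 3 were called. With the animal as a random effect, with a block by replicate number in place of the animal, and with no replicate block, 0 higher and 0 lower were called by limma, against 2826, 1920 and 647 genes at an unadjusted p-value of at most 0.05. Leaving out 1 animal in turn gave 0 to 64 genes called higher and 0 to 81 called lower. For the difference between genotypes DESeq2 called 6 genes, and leaving out 1 animal gave 0 to 36, the 36 without WT animal 2 and 3 without WT animal 1. Asking for each difference to be at least 0.1 left 766 genes higher and 1052 lower in all 4 animals, and at least 0.25 left 194 and 321. The cause of these shifts was not tested, except that fewer animals give fewer degrees of freedom. Of the named genes the 90 called ones kept their sign throughout, with the same limit. Signs of genes that were not called turned as follows. With thinned reads Ankrd1 had -0.0111 and with a pseudocount of 5 Gm20537 had -0.0143. With 1 animal left out in turn, the mean difference lay between -0.182 and 0.0015 for Col1a1, -0.0363 and 0.0780 for Ankrd1, -0.288 and 0.118 for ENSMUSG00000095742, -0.452 and 0.0270 for ENSMUSG00000101188, and -0.267 and 0.441 for Gm20537. The list medians that changed sign under at least 1 setting were those of the TGF-β, focal adhesion, cytokine, EMT, circadian and smooth muscle lists. The spread rests on 4 animals and a median SE of 0.0983 on the log2 scale, so that small changes in single genes were not detectable.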
